A study of Rattus norvegicus with 12 samples.

Results

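The left and the right inferior colliculus of hearing rats were compared, array by array, at baseline. The comparison used the 3 arrays titled as left inferior colliculus and the 3 titled as right inferior colliculus of the control group, 6 of the 12 arrays of the series. Control rats were SD rats that had a sham operation, in which the skin behind the ear was cut and the otic bulla was left undrilled, and tissue was taken 2 weeks later. The other 6 arrays came from SD rats whose right cochlea had been ablated 2 weeks earlier, 3 arrays for each side, and they entered here for a shared estimate of the spread between arrays and as a second, separate look at the 2 sides. Each arm held 20 rats, and age was not given. Whether each array was made from a single rat or from pooled tissue is not labelled, and the array numbers are not said to tie the sides of a rat together. The p-values therefore measure only the spread between arrays, which may be technical. Titles, source and tissue labels name the inferior colliculus, whereas the description of each array names the hippocampus.

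The inferior colliculus is the auditory centre of the midbrain and receives most of its input from the ear of the opposite side. It lies in front of the cerebellum, under the pineal gland and the meninges, and over the cerebral aqueduct, a canal of the ventricular system lined by ependymal cells with beating cilia. Beneath it lie brainstem nuclei that make serotonin, noradrenaline and acetylcholine. A dissected block can hold some of these neighbours, and in bulk RNA fewer cells of a type and less RNA per cell cannot be told apart. Lists of marker genes for each neighbour and for the collicular cells were therefore described side by side.

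The values were the deposited log2 expression values of 18166 genes, each read from its brightest probe. They ran from 1.33 to 13.1, with a median of 5.34 and a lower quartile of 3.78. The 6 control arrays correlated with one another at 0.984 to 0.994 across genes, which are not independent replicates. The tissue name was checked against genes of the tectum, the roof of the midbrain. Tfap2d, a transcription factor of the dorsal midbrain, had log2 levels of 9.52, 9.61 and 9.62 on the left and 9.39, 9.52 and 9.71 on the right. Neurod6, a transcription factor of hippocampal and cortical excitatory neurons, had 3.68, 3.18 and 2.94 on the left and 4.08, 3.61 and 3.43 on the right. Tfap2d was thus in the bright part of the scale on every control array. Neurod6 was near or under the lower quartile on every control array, although the description field says hippocampus. Other forebrain genes were brighter, and only 3 of 15 measured had mean levels under the lower quartile on both sides. Neurod2 had 4.77 to 5.91 on the control arrays, and Prox1, given below, was above the median of all values on each. The check therefore rests on single genes.

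No gene passed the test between the sides. By limma with Benjamini-Hochberg adjustment, 0 of 18166 genes (0.00%) differed at an adjusted p under 0.05, and the smallest adjusted p was 0.477. At an unadjusted p under 0.05 there were 900 genes (4.95%), 429 higher on the left (2.36%) and 471 lower (2.59%). Without right control 1, 0 genes passed and 1860 of the 18166 had an unadjusted p under 0.05, against the 900 with all arrays. The 3 left and 3 right arrays did not overlap for 1780 genes (9.80%), of which 901 were higher on the left (4.96%) and 879 lower (4.84%). The median left minus right difference over all genes was -0.0013 log2, with the left mean lower for 50.4% of genes and higher for 49.6%. The SD of the difference over genes was 0.158 log2, and only 4 genes had a difference of 1 log2 unit or more in either direction. An exact permutation test of 3 arrays against 3 cannot give a p below 0.1. Every difference below is therefore a measured value that did not pass. Array values are printed or drawn for many of the genes, and for some only the difference is given.

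**Figure D1:**
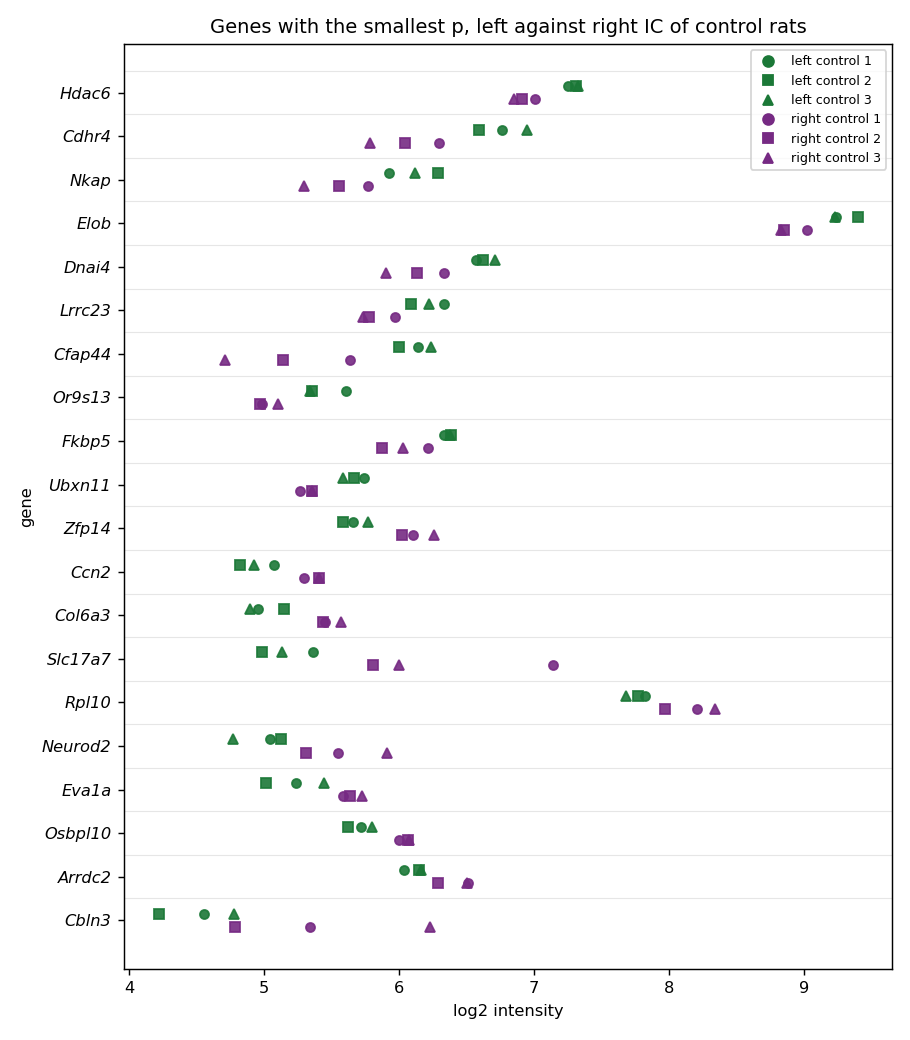
Log2 intensity on each of the 6 control arrays (horizontal axis) of the 20 genes of smallest unadjusted p that met the naming rule, 10 in each direction, 1 row a gene. Green marks are left arrays and purple marks right arrays, with circle, square and triangle for arrays 1, 2 and 3. Left and right marks are apart in every row because the rule asked for it, and Slc17a7 has the widest gap, from 5.36 to 5.81 with right control 1 at 7.14.

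Genes of motile cilia lay higher in the left colliculus. The naming rule took the 10 higher-left genes of smallest unadjusted p among those with non-overlapping arrays and a large enough difference and level. Of these 10, 3 belong to the axoneme, the microtubule core of a beating cilium. The rest were Cdhr4 (a cadherin-related protein), Hdac6 (a deacetylase that acts on the tubulin of microtubules), Nkap, Elob, Or9s13, Fkbp5 and Ubxn11. The 10 were picked by these same values, so their make-up is a description and not support. The ependymal cilium list had 10 measured members, 8 with a higher and 2 with a lower left mean, and a median difference of 0.378 log2 against -0.0013 over all genes. The arrays did not overlap for 5 of the 10, all higher on the left, where 4.96% of all genes did so. None of the 10 passed the adjusted test. The mean deviation of the list was 0.19, 0.0064 and 0.32 log2 on the left arrays and 0.0042, -0.24 and -0.28 log2 on the right arrays, so that left control 2 and right control 1 nearly met.

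Promoters of 3 genes, higher on every left array, are shown because each holds a short motif. GTTGCC, or GGCAAC on the other strand, is one arm of the X-box, the element bound by RFX transcription factors that switch on genes of cilia. Each run is the 250 bases just before the RefSeq gene start (GRCr8), written 5′ to 3′ on the strand of the gene, with the motif in capitals. Spag6l lies at chr11:97677590-97677839 on the plus strand, Cfap161 at chr1:147177822-147178071 on the minus strand and Tekt1 at chr10:57479122-57479371 on the minus strand.
Spag6l: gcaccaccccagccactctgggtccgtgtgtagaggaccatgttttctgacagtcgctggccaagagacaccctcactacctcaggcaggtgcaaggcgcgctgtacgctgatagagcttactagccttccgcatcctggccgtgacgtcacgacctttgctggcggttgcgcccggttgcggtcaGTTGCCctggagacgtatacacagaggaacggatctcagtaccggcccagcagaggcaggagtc
Cfap161: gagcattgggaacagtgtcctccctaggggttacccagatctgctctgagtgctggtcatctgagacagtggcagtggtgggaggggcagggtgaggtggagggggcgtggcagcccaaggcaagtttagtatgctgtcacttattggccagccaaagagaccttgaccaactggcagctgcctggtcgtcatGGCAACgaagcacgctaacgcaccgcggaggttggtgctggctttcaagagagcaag
Tekt1: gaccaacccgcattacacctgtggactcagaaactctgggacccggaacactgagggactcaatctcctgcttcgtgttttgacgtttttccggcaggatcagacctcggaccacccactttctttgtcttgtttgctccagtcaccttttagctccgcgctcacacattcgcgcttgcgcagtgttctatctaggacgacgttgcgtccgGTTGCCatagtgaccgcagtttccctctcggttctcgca
The motif began 64, 57 and 39 bases before the gene start in Spag6l, Cfap161 and Tekt1, respectively. Counted on both strands, it was in 3311 of the 33469 promoter windows of the RefSeq table (9.89%). It was in 3 of the 8 windows matched for the ependymal cilium list (37.5%), and in 0 of the 15 matched for the cerebellar granule list. The motif was chosen after other motifs had been looked at, a match of letters is not a binding site, and a window with no match lacks only these letters.

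Spag6l, a protein of the central pair of ciliary microtubules, had log2 levels of 7.10, 6.80 and 7.41 on the left and 6.70, 6.36 and 6.26 on the right. Its lowest left array lay above its highest right array, and the difference was 0.67 ± 0.21 log2 (SE, n = 3 arrays a side, limma adjusted p = 0.934). Hydin, another central-pair protein, had 6.05, 5.91 and 6.27 on the left and 5.81, 5.64 and 5.60 on the right, a difference of 0.39 log2. Tekt1, a filament protein of ciliary microtubule doublets, had 4.94, 4.97 and 5.08 on the left and 4.93, 4.34 and 4.63 on the right. All 3 genes kept the sides apart, Tekt1 by the narrowest margin. Cfap161, a protein of ciliary microtubules, had 5.77, 5.59 and 5.95 on the left and 5.46, 5.46 and 5.24 on the right, also without overlap. Dynlrb2, a dynein light chain, differed by 0.46 log2, with 4.45, 4.31 and 4.87 on the left and 4.28, 4.04 and 3.93 on the right. Ak7, a ciliary adenylate kinase, differed by 0.58 log2, but its groups overlapped. Tmem212, a transmembrane protein of ependymal cells, had 6.40, 6.07 and 6.82 on the left and 5.91, 6.05 and 6.10 on the right, so that its groups overlapped.

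Outside the list, Cfap44, a protein that tethers an axonemal dynein, had 6.14, 6.0 and 6.24 on the left and 5.64, 5.14 and 4.71 on the right. This was the widest difference of the 10 named higher-left genes, 0.96 ± 0.25 log2 (SE, n = 3 arrays a side, limma adjusted p = 0.934). Dnai4, an intermediate chain of axonemal dynein, had 6.57, 6.62 and 6.71 against 6.33, 6.13 and 5.90. Lrrc23, a component of the radial spoke, had 6.34, 6.09 and 6.22 against 5.97, 5.77 and 5.73. Neither gene had a right array as high as any left array. Cdhr4 had 6.76, 6.59 and 6.95 on the left and 6.29, 6.04 and 5.78 on the right, and its difference was 0.73 ± 0.16 log2 (SE, n = 3 arrays a side, limma adjusted p = 0.870). Hdac6 had the narrowest spread of these genes, with 7.25, 7.31 and 7.33 against 7.01, 6.91 and 6.85.

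To see whether the cilium genes moved as a class, all genes with symbols of axonemal parts or their assembly factors were taken (Cfap, Dnah, Dnai, Dnal, Rsph, Tekt, Drc, Dnaaf and Odad with a number). The rule was set after the values above had been seen. The class holds genes described above, such as Cfap44, Dnai4 and Cfap161, and shares Tekt1, Cfap126, Cfap52 and Rsph1 with the ependymal list. It is therefore not separate support. Of the 83 genes of the class, 63 had a higher left mean and 20 a lower one, and the median difference was 0.175 log2. The arrays did not overlap for 25 genes higher and 2 genes lower on the left, beside 4.96% and 4.84% of all genes. The mean deviation over the 83 genes was 0.089, 0.0040 and 0.153 log2 on the left arrays and -0.022, -0.087 and -0.137 log2 on the right arrays. The groups did not overlap, and left control 2 and right control 1 were the nearest arrays of the sides. Leaving out any 1 control array gave a median of 0.138 to 0.201 log2, with 58 to 65 of the genes higher on the left. Most of these genes are dim, and the difference was smaller among the brighter ones. The 18 whose mean over all 12 arrays was above that of the median gene (5.97) had a median of 0.105 log2, with 13 higher and 5 lower on the left. Arrays did not overlap for 3 of the 18, all higher on the left, beside 4.96% of all genes. The other 65 had a median of 0.190 log2, with 50 higher and 15 lower. The motif was in 21 of the 69 windows matched for the class (30.4%).

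**Figure D2:**
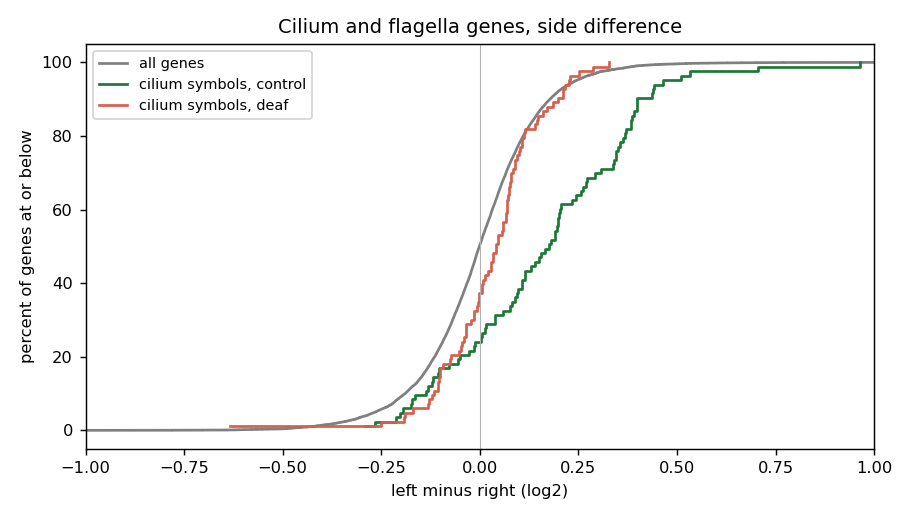
Cumulative percent of genes (vertical axis) at or below a left minus right difference in log2 (horizontal axis). Lines show all genes in control rats (grey) and the 83 genes with cilium and flagella symbols in control (green) and deaf (red) rats. The green line lies to the right of the grey one, with medians of 0.175 and -0.0013 log2, and the red line stays near the grey one, with a median of 0.041 log2.

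Choroid plexus markers, the tissue of the ventricles that makes cerebrospinal fluid, had no steady direction. Of 11 measured, 4 were higher and 7 lower on the left, with a median of -0.035 log2, and without left control 1 or without right control 2 there were 6 higher and 5 lower, with medians of 0.0084 and 0.0091 log2. Ttr, the thyroid hormone carrier that choroid plexus makes in great amounts, had log2 levels of 4.80 to 4.95 on all 6 control arrays, below the median of all values. Clic6, a chloride channel protein, was the only member whose arrays did not overlap (9.80% of all genes in either direction), with 5.10, 5.30 and 5.12 on the left and 4.81, 5.04 and 4.73 on the right.

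Genes of cerebellar granule cells, the small excitatory neurons that fill the cerebellar cortex behind the colliculus, lay lower on the left. Of 19 measured members, 17 had a lower and 2 a higher left mean, and the median difference was -0.165 log2. The arrays did not overlap for 5 of the 19, all lower on the left (4.84% of all genes). None of the 19 passed the adjusted test, and 6 were lower at an unadjusted p under 0.05, against 2.59% of all genes.

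Gabra6, the GABA-A receptor subunit that marks granule cells, had log2 levels of 3.06, 2.98 and 3.01 on the left and 3.86, 3.99 and 5.30 on the right. The left arrays were all under the lower quartile of the values and right control 3 stood above the rest. The difference was -1.37 ± 0.37 log2 (SE, n = 3 arrays a side, limma adjusted p = 0.934) and -0.91 log2 without right control 3. Cbln3, a secreted partner of cerebellin at granule cell synapses, had 4.56, 4.22 and 4.78 on the left and 5.34, 4.78 and 6.23 on the right. Its difference of -0.94 log2 became -0.55 log2 without right control 3. Fat2, a cadherin of granule cell axons, had 4.12, 4.24 and 4.70 on the left and 5.03, 4.64 and 5.76 on the right, where a right array fell below a left one. Neurod1, a transcription factor of granule neurons, had 4.57, 4.52 and 4.23 against 4.88, 4.58 and 5.44, and Etv1, a factor of their maturation, had 7.78, 7.65 and 7.88 against 7.92, 7.96 and 8.14. Right control 3 was the highest array for all 5 of these genes.

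Slc17a7, the vesicular glutamate transporter of cerebellar granule cells and cortical neurons, was among the 4 genes with a difference of 1 log2 unit or more. Its log2 levels were 5.36, 4.99 and 5.13 on the left and 7.14, 5.81 and 6.0 on the right. The difference was -1.15 ± 0.26 log2 (SE, n = 3 arrays a side, limma adjusted p = 0.870), and it was -0.74 log2 without right control 1. Unlike the 5 genes above, Slc17a7 was highest on right control 1, the array on which the brainstem and meningeal markers described further on were also highest. Their part in the Slc17a7 difference was not tested. Slc17a6, the transporter that collicular excitatory neurons use, had 9.70, 9.84 and 9.68 on the left and 9.67, 9.99 and 9.76 on the right, with the groups intermixed.

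Over the whole granule list, the mean deviation of the members was -0.13, -0.25 and -0.14 log2 on the left arrays and 0.21, -0.03 and 0.34 log2 on the right arrays. The groups did not overlap, which was not particular to this list. The forebrain, ependymal, blood, myelin and clock lists were also apart, by narrower gaps. The nearest left and right arrays were at -0.059 and -0.037 log2 for the forebrain list and at 0.014 and 0.022 log2 for blood. The summed linear level of the 19 granule members ranged from 1196 to 1337 on the left and from 1356 to 1630 on the right. Gabra6 was under the lower quartile on all left arrays and above it on all right arrays. Leaving out any 1 control array gave a list median of -0.266 log2, without right control 2, to -0.153 log2.

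Markers of Purkinje cells, the output neurons of the cerebellar cortex, and of Bergmann glia, their neighbours, were less far apart. Of 12 measured, 8 were lower and 4 higher on the left, the median was -0.075 log2 (-0.027 log2 without right control 3), and the arrays overlapped for all 12. Pcp2, a G-protein regulator of Purkinje cells, had 4.56, 4.43 and 4.83 on the left and 5.19, 4.78 and 5.74 on the right. Car8, a carbonic anhydrase-related protein of Purkinje cells, had 6.25, 6.37 and 6.28 on the left and 6.51, 6.35 and 7.48 on the right. Both genes were highest on right control 3. Without it the Pcp2 difference of -0.63 log2 became -0.38 log2 and the Car8 difference of -0.48 log2 became -0.13 log2.

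**Figure D3:**
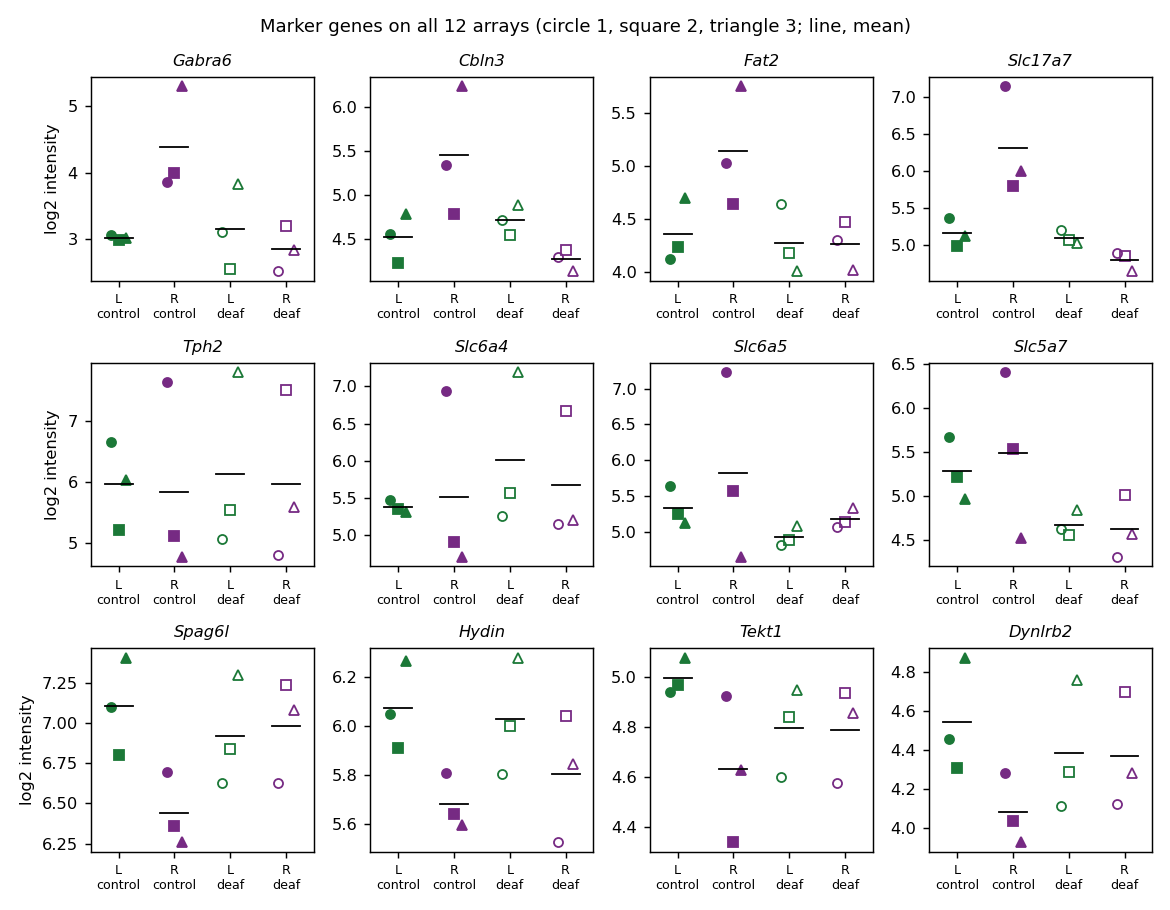
Log2 intensity of 12 marker genes on all 12 arrays, 1 panel a gene, with left (green) and right (purple), control (filled) and deaf (open), and circle, square and triangle for arrays 1, 2 and 3. Lines are group means. Right control 3 is highest of all for Gabra6, Cbln3 and Fat2, right control 1 is highest of all for Slc17a7, Slc6a5 and Slc5a7, and Tph2 is high on 1 array of 3 of the groups.

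Forebrain genes had a lower left mean for 12 of 15 measured members and a higher one for 3, with a median of -0.174 log2 that was -0.096 log2 without right control 3. The arrays did not overlap for 3 of the 15, all lower on the left (4.84% of all genes): Neurod2, Wfs1 and Dlx5. Dlx5 was among 3 members with mean levels under the lower quartile on both sides. Neurod2, a transcription factor of cortical, hippocampal and granule neurons, had 5.05, 5.13 and 4.77 on the left and 5.55, 5.31 and 5.91 on the right, a difference of -0.61 ± 0.16 log2 (SE, n = 3 arrays a side, limma adjusted p = 0.934). Its highest array was again right control 3. Tbr1, a factor of cortical projection neurons, had 4.09, 4.44 and 4.23 against 4.38, 4.60 and 4.82, with overlap. Prox1, which marks dentate granule cells and is also made elsewhere in the brain, had 6.29, 6.20 and 6.24 against 6.47, 6.11 and 6.27, with the groups intermixed. Restricted to genes above the median level, the list median was -0.036 log2.

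Pineal markers had a lower left mean for 8 of 11 members, with a median of -0.128 log2 that was -0.218 log2 without right control 1 and -0.083 log2 without right control 3. Aanat, the enzyme that sets the rate of melatonin synthesis, had 4.59, 4.50 and 4.36 on the left and 4.48, 4.89 and 4.52 on the right, and Asmt, the last enzyme of that pathway, had 5.41, 5.36 and 5.31 against 5.40, 5.22 and 5.58. Both genes were intermixed between the sides, and Aanat was below the median of all values on every control array.

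Markers of brainstem monoamine and cholinergic nuclei differed between single arrays more than between sides. Of 13 measured, 10 had a lower left mean and 3 a higher one, with a median of -0.043 log2 and overlapping arrays for all 13. Without right control 1, 2 were lower and 11 higher, with a median of 0.163 log2, so that this 1 array set the direction. Tph2, the serotonin-making enzyme of the raphe, had 6.65, 5.21 and 6.03 on the left and 7.64, 5.11 and 4.77 on the right. Its range of over 2 log2 units lay mostly within the right side. Slc6a4, the serotonin transporter, had 5.47, 5.35 and 5.31 on the left and 6.94, 4.91 and 4.71 on the right, and Slc18a2, the vesicular monoamine transporter, had 4.84, 4.38 and 4.35 against 6.14, 4.13 and 4.39. Slc5a7, the choline transporter, had 5.68, 5.22 and 4.97 against 6.41, 5.53 and 4.53. Right control 1 was highest for all 4, and the mean deviation of the list was 0.68 log2 on it against -0.32 to 0.23 log2 on the other 5.

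Slc6a5, the glycine transporter of inhibitory brainstem neurons, was also highest on right control 1. It had 5.64, 5.24 and 5.12 on the left and 7.23, 5.56 and 4.65 on the right. For 2 general genes of inhibitory neurons, right control 2 was the highest array. Gad1, a GABA-making enzyme, had 10.23, 10.11 and 10.19 against 10.25, 10.35 and 9.85, and Slc32a1, the vesicular GABA and glycine transporter, had 8.14, 8.10 and 8.05 against 8.19, 8.26 and 8.05. Over the GABA and glycine list, 11 of 15 members were lower and 4 higher on the left, with a median of -0.072 log2, which was -0.026 log2 without right control 2 and -0.125 log2 without right control 3. The mean deviation of that list was highest on right control 1, at 0.155 log2, followed by 0.112 log2 on right control 2, and lowest on right control 3, at -0.137 log2.

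Genes of meningeal fibroblasts, which make the collagen sheet over the brain, had a lower left mean for 16 of 18 members, with a median of -0.201 log2, and overlapping arrays for all 18. Without right control 1, 5 were lower and 13 higher, with a median of 0.048 log2. Col1a2, a fibrillar collagen chain, had 6.56, 6.26 and 6.17 on the left and 7.28, 6.41 and 6.16 on the right. Dcn, a collagen-binding proteoglycan, had 6.08, 6.02 and 5.44 against 6.50, 6.01 and 5.66. Both were highest on right control 1, where the mean deviation of the list was 0.57 log2 against -0.32 to 0.19 log2 on the other 5. Markers of blood were lower on the left for all 5 members measured, with a median of -0.077 log2 (-0.142 log2 without left control 1 and -0.042 log2 without right control 3). Without left control 2, and also without right control 1, only 3 were lower and 2 were higher. Hbb-b1, a beta globin, differed by -0.37 log2.

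**Figure D4:**
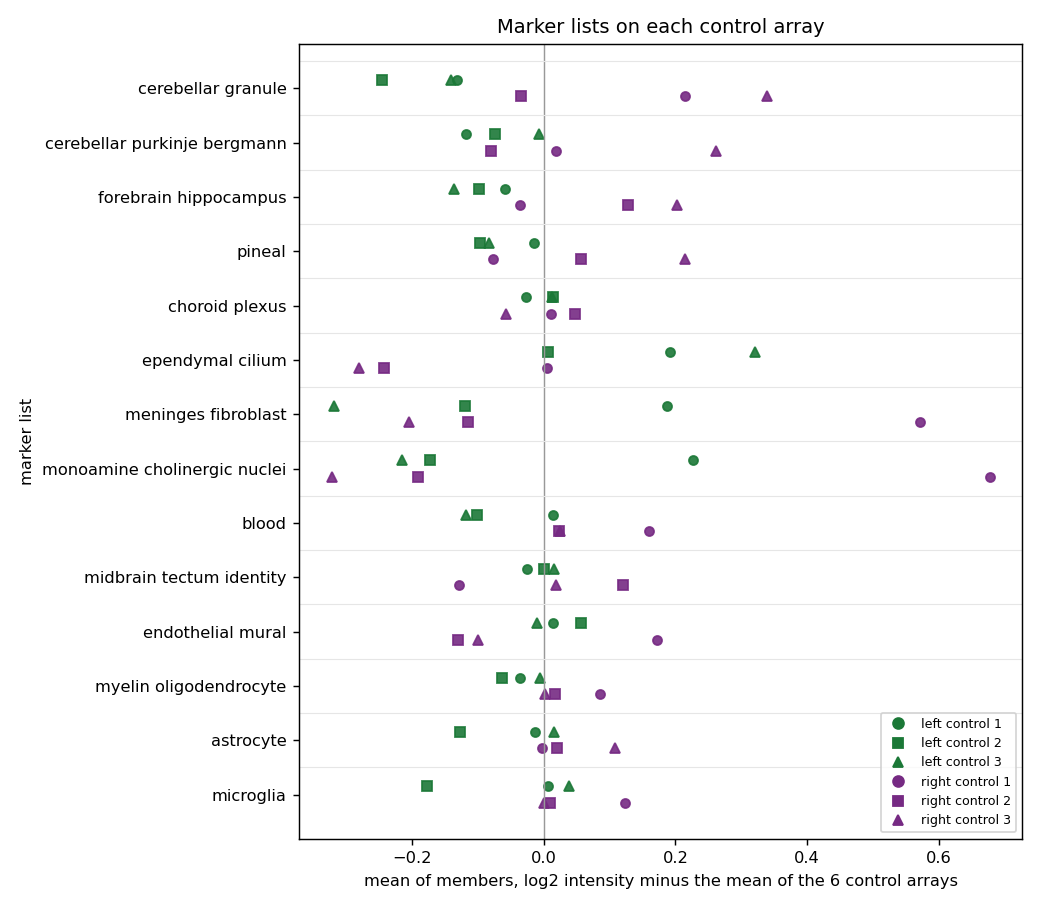
Mean over the members of each of 14 marker lists, as log2 intensity minus the mean of the 6 control arrays (horizontal axis), with green for left, purple for right, and circle, square and triangle for arrays 1, 2 and 3. Left and right marks are apart for the cerebellar granule list (-0.25 to -0.13 against -0.03 to 0.34). They are also apart, by narrower gaps, for the forebrain, ependymal, blood and myelin lists. Right control 1 (purple circle) stands far to the right for the monoamine and cholinergic list, at 0.68, and for the meninges list, at 0.57.

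The genes that name the midbrain tectum had a small median difference whose direction turned with single arrays. Of 18 measured, 11 had a lower and 7 a higher left mean, the median was -0.023 log2, and the arrays did not overlap for 1 (9.80% of all genes in either direction). Without right control 2 there were 5 lower and 13 higher, with a median of 0.065 log2, without right control 3 the median was 0.038 log2, and without right control 1 there were 13 lower and 5 higher, with a median of -0.081 log2. Tcf7l2, a Wnt effector of dorsal midbrain and thalamus, had 10.24, 10.10 and 10.27 on the left and 10.16, 10.15 and 10.34 on the right. Gata3, a factor of midbrain GABA neurons, had 7.84, 7.41 and 8.0 against 7.66, 8.05 and 7.78. Meis2, a homeobox factor of the tectum, had 9.40, 9.37 and 9.46 against 9.25, 9.38 and 9.12, with overlap. The 1 member without overlap was Lhx1, a homeobox factor of midbrain neurons, higher on the left by 0.24 log2 with 5.19, 5.35 and 5.22 against 4.92, 4.97 and 5.16.

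Glial and vascular cells lie within the colliculus itself. Myelin and oligodendrocyte genes were lower on the left for 13 of 17 members, with a median of -0.065 log2. The arrays did not overlap for 3 of the 17, all lower (4.84% of all genes). Astrocyte genes were lower for 12 of 13, with a median of -0.096 log2 that was -0.039 log2 without left control 2. Aqp4, the water channel of astrocyte endfeet, had 10.79, 10.76 and 10.80 on the left and 10.80, 10.91 and 10.98 on the right, a difference of -0.11 log2. Microglial genes were lower for 10 of 13, with a median of -0.088 log2. Without left control 2 they were lower for 7 and higher for 6, with a median of -0.033 log2, and leaving out any 1 array gave medians from -0.160 to -0.033 log2. Cx3cr1, the fractalkine receptor of microglia, had 8.04, 7.15 and 8.27 against 7.96, 8.21 and 8.47, where left control 2 alone was low. Genes of endothelial and mural cells were higher on the left for 13 of 17, with a median of 0.030 log2. That median was -0.0097 log2 without right control 2 (9 lower, 8 higher), 0.00037 log2 without right control 3 (8 lower, 9 higher) and 0.150 log2 without right control 1, so that single arrays set its direction and size.

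Apart from the GABA and glycine list, the lists of neuronal function had medians of -0.022 to -0.0076 log2. Glutamate genes were lower on the left for 9 of 13 members, with a median of -0.017 log2. Fast-firing channels and calcium-binding proteins were lower for 10 of 17 and had a median of -0.022 log2. Neuropeptides were lower for 11 of 20, with a median of -0.0076 log2, and immediate early genes, which neurons switch on with activity, for 12 of 17, with a median of -0.019 log2. Fos, an immediate early transcription factor, had 6.53, 6.61 and 6.42 on the left and 6.40, 6.63 and 6.62 on the right, and Egr1, another, had 7.99, 7.89 and 8.05 against 7.95, 8.07 and 8.15. Neither gene set the sides of hearing rats apart. The glutamate median turned to 0.023 log2 without right control 2, the fast-firing median to 0.0042 log2 without right control 1, and the neuropeptide median to 0.020, 0.021 and 0.029 log2 without left control 3, right control 1 and right control 2, respectively. The immediate early median stayed between -0.045 and -0.0034 log2.

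Glucocorticoid-responsive genes were lower on the left for 8 of 18 members, with a median of 0.0015 log2, and clock genes for 6 of 13, with a median of 0.025 log2. Leaving out 1 array at a time gave medians from -0.027 to 0.042 log2 and from 0.0036 to 0.077 log2, respectively. Of the glucocorticoid list, Fkbp5 was among the 10 genes named on the higher-left side. Arrdc2, with a difference of -0.32 log2, was among the 10 named on the lower-left side. In that list the arrays did not overlap for 1 member higher and 2 lower on the left, beside 4.96% and 4.84% of all genes. Fkbp5, a chaperone that restrains the glucocorticoid receptor, had 6.33, 6.39 and 6.37 on the left and 6.22, 5.87 and 6.03 on the right, a difference of 0.32 ± 0.091 log2 (SE, n = 3 arrays a side, limma adjusted p = 0.934). Per1, a clock gene that steroids also induce, had 6.92, 6.87 and 7.34 against 6.89, 6.80 and 6.78, with overlap.

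Genes that set the left-right axis of the embryo were lower on the left for 6 of 13 members and higher for 7, with a median of 0.030 log2 that was -0.059 log2 without right control 1 and -0.0035 log2 without left control 3. Nodal, the signal of the embryo's left side, had 4.91, 5.38 and 5.20 on the left and 4.99, 5.15 and 4.95 on the right, with overlap. Dnah11, a dynein of the nodal cilia that is also a part of other motile cilia, had 5.74, 5.82 and 5.79 against 5.57, 5.46 and 5.49, without overlap. Cfc1, a co-receptor for Nodal, had 4.81, 4.73 and 4.73 against 4.79, 5.23 and 5.06, with overlap. Uty, the only sex-linked gene of its list that was measured, had 7.37, 7.38 and 7.37 against 7.49, 7.37 and 7.34.

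On the lower-left side, the remaining named genes were of mixed kinds. Zfp14, a zinc finger protein, had 5.66, 5.59 and 5.77 on the left and 6.10, 6.02 and 6.25 on the right, a difference of -0.45 ± 0.091 log2 (SE, n = 3 arrays a side, limma adjusted p = 0.771). Ccn2, a matrix protein induced by growth factors and mechanical stretch, had 5.07, 4.82 and 4.92 against 5.30, 5.41 and 5.41. Both had tight groups with a clear gap. Col6a3, a collagen chain of connective tissue, was lower by a difference of -0.49 log2. Arrdc2, an arrestin-domain protein and a member of the glucocorticoid list, had 6.04, 6.15 and 6.16 against 6.51, 6.29 and 6.50. Rpl10 (a ribosomal protein), Eva1a and Osbpl10 differed by -0.42, -0.42 and -0.33 log2. On the higher-left side, Nkap, Elob (a subunit of the elongin complex), Or9s13 (an olfactory receptor by its symbol) and Ubxn11 differed by 0.57, 0.38, 0.41 and 0.34 log2.

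Single arrays stood apart in a few genes. Among genes whose level on that array, or median over the 6, was above the median of all values, right control 3 had 21 genes at least 1 log2 unit above and 21 at least 1 log2 unit below the median of the other 5 control arrays, and right control 1 had 13 and 1. The other 4 control arrays had at most 2 above and 5 below. The 13 genes high on right control 1 were led by Tph2, 2.43 log2 above, with Slc6a5 at 1.99, Slc17a7 at 1.77, Slc18a2 at 1.76 and Slc6a4 at 1.63 log2 above. Those high on right control 3 were of mixed kinds. Cbln3 at 1.46, Car8 at 1.14 and Fat2 at 1.12 log2 above stood among olfactory receptor, keratin and microRNA genes such as Or9i1b at 1.44, Mir483 at 1.28 and Krt31 at 1.20 log2 above. The 21 low genes included the ribosomal protein gene Rps3a at -1.08, Cfap44 at -1.29 and Tph2 at -1.26 log2. Right control 3 thus departed in genes beyond the granule markers that were high on it and the cilium genes that were low on it. Its 21 high and 21 low genes were among 11442 that met the level. Without that array the list medians were -0.172 log2 for the granule list, 0.357 log2 for the ependymal list and 0.161 log2 for the 83 cilium symbols. The SD of an array's deviations over all genes was 0.283 log2 for right control 3 and 0.175 to 0.212 log2 for the other 5, and the lowest array weight that limma estimated, 0.426, was that of right control 3.

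In rats with the right cochlea ablated, the same side comparison also called no gene. By limma, 0 of 18166 genes (0.00%) passed an adjusted p under 0.05, 607 (3.34%) had an unadjusted p under 0.05, and 1510 (8.31%) had arrays that did not overlap. Across genes, the left minus right difference in deaf rats and that in control rats, measured on separate arrays, correlated at r = 0.064 (Spearman's rho = 0.083). The sign was the same for 53.6% of all genes and for 12 of the 20 named, 7 of the 10 higher and 5 of the 10 lower on the left.

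The medians of the cilium genes were nearer to that of all genes in deaf rats. The median of the ependymal list was 0.0066 log2 there and that of the 83 cilium symbols 0.041 log2, with 52 of the 83 higher on the left, where 47.8% of all genes were. Spag6l had log2 levels of 6.63, 6.84 and 7.30 on the left and 6.63, 7.24 and 7.08 on the right in deaf rats. Cfap44 had 5.34, 5.31 and 6.19 against 5.35, 5.81 and 5.46. Their deaf arrays thus covered most of the range that separated left from right in control rats.

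The granule list was more often higher than lower on the left in deaf rats, with a median of 0.093 log2 and 5 of 19 members lower. Gabra6 had 3.10, 2.54 and 3.82 on the left and 2.51, 3.19 and 2.83 on the right, and Slc17a7 had 5.20, 5.07 and 5.04 against 4.90, 4.86 and 4.65. No deaf array reached the 5.30 of Gabra6 on right control 3 or the 7.14 of Slc17a7 on right control 1. Tph2 had 5.06, 5.53 and 7.80 on the left and 4.80, 7.50 and 5.59 on the right, so that 1 array of each side was high. The test of the difference itself, the side by deafness interaction, called 0 of 18166 genes (0.00%) by limma, with 622 (3.42%) at an unadjusted p under 0.05 and a smallest adjusted p of 0.0926. A difference between the side effects of control and deaf rats was therefore not shown for any gene.

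**Figure D5:**
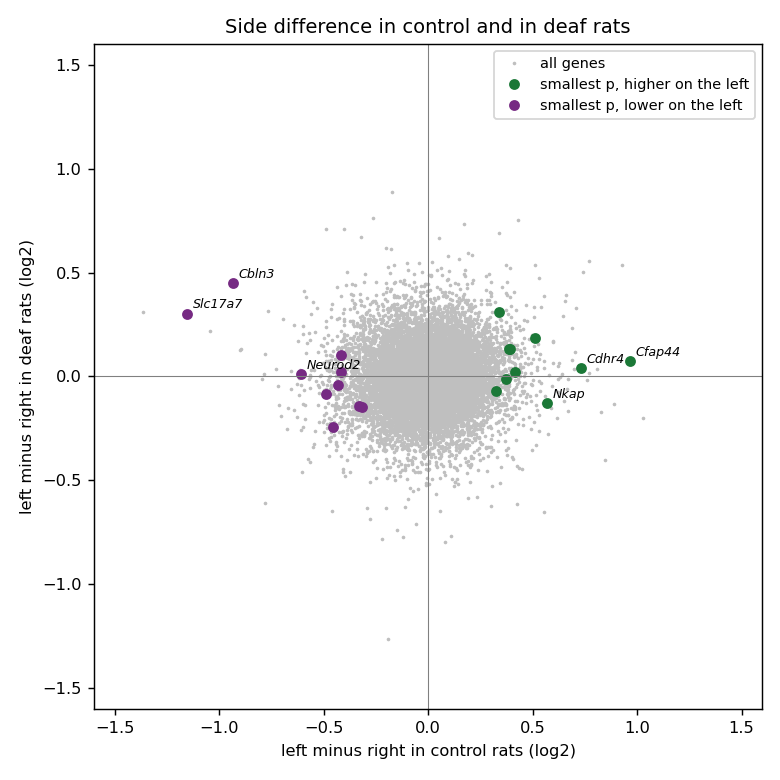
Left minus right difference in log2 in control rats (horizontal axis) against that in deaf rats (vertical axis), for all 18166 genes (grey) and the 20 named genes (green, higher on the left in control rats, and purple, lower). The named genes lie far from 0 on the horizontal axis by selection, and 12 of the 20 have the same sign on the vertical axis.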

How the data were processed

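Affymetrix arrays of biotin-labelled cDNA measured RNA in 12 samples of rat inferior colliculus, 3 for each side of control and deaf rats. The deposited log2 values were used as the authors normalized them, by a method not given in the sources used here. Of 29489 probes, 18511 had 1 gene symbol, 575 had several and 10403 had none. The brightest probe was kept for each of 18166 genes (291 had more than 1), and 18059 genes matched RefSeq by Entrez identifier. Promoter sequences came from RefSeq (GRCr8).

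Group means were fitted on all 12 arrays with limma 3.58.1 (R 4.3.3), two-sided, with Benjamini-Hochberg adjustment over all genes at 0.05, after tests on simulated data. Residual degrees of freedom were 8. The number of arrays limits the precision. Genes are named by rule: up to 10 in each direction by unadjusted p, with arrays that did not overlap, a difference of at least 0.3 log2 and a mean above 5.34 on at least 1 side; the first 3 measured members and the 3 of smallest p of each neighbour and identity list; the 2 of smallest p of every other list; and the 3 highest and 3 lowest genes of each control array. Other members named to describe a cell type or pathway, and the cilium symbol class, were chosen after their values were seen. The 23 lists held 376 genes, 319 of them measured. A list's mean deviation on an array is the mean over its members of the log2 value minus that gene's mean over the 6 control arrays. The members and lists were chosen with earlier results of these data known. Alternatives were other thresholds, filters, probe rules, scalings, array weights, the control arrays alone, a replicate block and leaving out each array.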

Additional observations from a re-analysis of the deposited data

How the results depend on the processing

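By limma, no alternative called a gene between the sides of control rats (0 each, smallest adjusted p 0.0554 to 0.988). Genes at an unadjusted p under 0.05 by limma numbered 406 among genes above the median level alone, which is a smaller set of genes. Over all 18166 genes there were 1860 without right control 1, against 900 in the main fit. At an adjusted p under 0.1 the interaction called 1 gene, the dim microRNA gene Mirlet7f2. At an adjusted p under 0.05 it called 0 in every other alternative run, leaving out each array included. In some of these runs the smallest adjusted p by limma was also under 0.1, such as 0.0555 with array weights and 0.0633 without right deaf 3. The control arrays alone cannot give an interaction. Whether the replicate numbers pair the sides was not settled. Same-number correlations of deviations were 0.10, -0.013 and 0.057 in control and 0.15, -0.056 and -0.043 in deaf rats. Those of unlike numbers ran from -0.092 to 0.039 in control and from -0.16 to 0.20 in deaf rats. So few values can neither show nor exclude pairing. The replicate block called 0 genes by limma (918 at an unadjusted p under 0.05). The granule list median was -0.144 log2 among genes above the median level. Among the 90 named genes, the side difference turned sign when 1 array was left out for the 4 given here. It also did so for others with small differences, such as Rarres2, Folr1, Asmt and Kl. The side difference ranged from -0.41 to 0.0079 log2 for Dcn, from -0.56 to 0.076 for Slc18a3 and from -0.060 to 0.013 for Uty, each turning without right control 1. For Slc4a1 it ranged from -0.15 to 0.036 and turned without right control 3. The cause was not tested. List medians moved by more than the spread between arrays in 14 of 228 recomputations, and the median of the cilium class was 0.105 log2 among genes above the median level.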
